A study of Homo sapiens with 4 samples.

Results

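Well-covered transcribed unprocessed pseudogenes were more abundant in nuclear than in cytoplasmic RNA of HEK293T cells. The group was chosen by 2 entries of the deposited table, the annotated class transcribed unprocessed pseudogene and a mean normalized count of at least 50 over all libraries. There were 240 such genes among 861 rows of that class and 51740 rows in all. HEK293T cells are a line from human embryonic kidney transformed to express SV40 large T antigen, and the cells of every library were wildtype and had been crosslinked with formaldehyde before fractionation. The 4 libraries were 2 nuclear and 2 cytoplasmic biological replicates, made from an equal mass of RNA with a kit that depletes ribosomal RNA. A value therefore compares a gene's level relative to the other genes of each fraction, scaled by DESeq2's size factors, and not its amount per cell. The fold change is cytoplasm over nucleus, so that a negative log2 value means a higher normalized level in the nuclear RNA. A small positive value need not mean a larger share of the cytoplasmic counts, which is taken up below under equal library totals.

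An unprocessed pseudogene is a copy of a gene that arose by duplication of DNA, so that it can keep the introns and flanking sequence of the gene it was copied from, here called its parent. A processed pseudogene arose by reverse transcription of a spliced mRNA and lacks introns. Many unprocessed pseudogenes lie in segmental duplications, the recently copied blocks of chromosomes such as 7, 15 and 16. Those that are transcribed make RNA that can be spliced, retained or exported like other long RNAs, but that as a rule does not encode the full parent protein.

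Because the genes were selected on their measured mean, their levels are given as a description. The means ran from 50.9 to 3740 normalized counts, with a median of 242. Just inside the limit were NBPF25P at 50.9 and CFL1P1 at 51.1, and just outside were TMEM231P1 at 49.4 and ROCK1P1 at 49.2. The mean over all libraries was past 50 through both fractions for 178 genes, through the nuclear mean alone for 56 and through the cytoplasmic mean alone for 6. A gene that passed through 1 fraction had to differ between them to some extent, and the limit does not weigh both directions alike.

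The table holds no value of a single library. The count of each library was recovered here from the digits of the mean, the fold change and its standard error. All 240 pseudogenes were recovered, and the libraries are called the deeper and shallower library of each fraction, since the replicate number of each is unknown. Recovered counts summed to 18375272 and 15853405 in the nuclear libraries and to 11676517 and 10697201 in the cytoplasmic ones, over 21866 genes with a mean of at most 5000. Among the pseudogenes the median count was 441 and 401.5 in the nuclear libraries and 110 and 99.5 in the cytoplasmic ones. The fractions followed their labels for the nuclear lncRNAs MALAT1 and NEAT1, at log2 fold changes of -3.47 and -3.09.

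The sequence of a pseudogene and its parent can differ at few positions, which bears on where a read is placed. Below, 100 bases of an exon of a pseudogene are set against the matching coding exon of a related protein-coding gene. The bases that differ are in capitals, and all are from hg38. The pseudogene's exons can include those of a later annotated gene joined to it, as described below. These pairs were chosen after their values were seen, and each is taken up again with its counts. SUZ12P1 (chr17:30768834-30768933, plus strand) is shown against SUZ12 (chr17:31975482-31975581, plus strand), a subunit of Polycomb repressive complex 2, because it had the highest mean of the group, and 2 bases differ.
SUZ12P1: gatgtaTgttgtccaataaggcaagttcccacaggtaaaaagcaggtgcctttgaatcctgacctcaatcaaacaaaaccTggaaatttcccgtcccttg
SUZ12: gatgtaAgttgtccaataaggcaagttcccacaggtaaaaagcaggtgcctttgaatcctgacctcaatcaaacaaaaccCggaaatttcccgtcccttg

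UBE2Q2P2 (chr15:82391844-82391943, plus strand) is shown against UBE2Q2 (chr15:75859878-75859977, plus strand), a ubiquitin-conjugating enzyme, as a pseudogene with one of the lowest fold changes among those with high counts, and 5 bases differ.
UBE2Q2P2: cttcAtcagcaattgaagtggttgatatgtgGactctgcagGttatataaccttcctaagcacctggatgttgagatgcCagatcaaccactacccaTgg
UBE2Q2: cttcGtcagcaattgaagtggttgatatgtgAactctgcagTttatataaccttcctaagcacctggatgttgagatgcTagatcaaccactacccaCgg

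PPIEL (chr1:39541704-39541803, minus strand) is shown against PPIE (chr1:39748942-39749041, plus strand), a nuclear cyclophilin, as a pair on opposite sides of the comparison, and 12 bases differ.
PPIEL: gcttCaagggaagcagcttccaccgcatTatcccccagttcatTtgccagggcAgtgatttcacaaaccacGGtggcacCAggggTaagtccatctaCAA
PPIE: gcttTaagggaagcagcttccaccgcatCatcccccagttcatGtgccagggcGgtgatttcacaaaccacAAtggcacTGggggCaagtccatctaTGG

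FAM86C1P (chr11:71794932-71795031, plus strand) is shown against EEF2KMT (chr16:5090243-5090342, minus strand), the lysine methyltransferase of elongation factor 2, as a cytoplasmic pseudogene of a cytoplasmic relative, and 5 bases differ.
FAM86C1P: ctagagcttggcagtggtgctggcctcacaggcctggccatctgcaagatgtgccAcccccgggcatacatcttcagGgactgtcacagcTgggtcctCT
EEF2KMT: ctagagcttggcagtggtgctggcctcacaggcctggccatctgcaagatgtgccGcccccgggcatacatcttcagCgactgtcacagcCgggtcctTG

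GTF2IP1 (chr7:75196697-75196796, minus strand) is shown against GTF2I (chr7:74749268-74749367, plus strand), a transcription factor gene of the Williams-Beuren region, as a copy without a difference in this stretch.
GTF2IP1: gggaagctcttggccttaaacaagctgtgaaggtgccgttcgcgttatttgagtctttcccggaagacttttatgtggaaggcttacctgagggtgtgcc
GTF2I: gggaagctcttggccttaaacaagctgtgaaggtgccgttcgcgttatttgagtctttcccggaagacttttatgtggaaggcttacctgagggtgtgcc

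The question of this comparison was in which fraction these RNAs had the higher normalized level, which does not give where most of their molecules are. At a threshold of 0.01 on the DESeq2 adjusted p in the authors' deposited results, 175 of the 240 pseudogenes (72.9%) were higher in the nucleus and 17 (7.08%) were higher in the cytoplasm. The remaining 48 (20.0%) were not called. Among the 13894 tested genes with a mean of at least 50, the background was 36.8% higher in the nucleus and 40.3% higher in the cytoplasm, with 77.2% called in either direction. Over all 23333 tested genes, 52.4% were called, 26.5% higher in the nucleus and 25.9% higher in the cytoplasm. The median log2 fold change of the pseudogenes was -1.62 (quartiles -2.69 and -0.79), against 0.08 over those genes. In all, 207 pseudogenes had a negative and 33 a positive fold change, from -5.79 to 3.88. Among the 178 with a mean of at least 50 in both fractions, 128 (71.9%) were higher in the nucleus and 14 (7.87%) in the cytoplasm, with a median of -1.49. The 12391 tested genes with such means had 33.7% and 42.2%, with a median of 0.17.

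Of the nuclear calls, 164 had a log2 fold change below -1, 95 below -2, 40 below -3 and 8 below -4. Of the cytoplasmic calls, 15 were above 1, 2 above 2 and 1 above 3. The values of single libraries were recovered from these same fold changes and means, so their order describes the split and adds no separate evidence. Both nuclear libraries lay above both cytoplasmic libraries in 200 pseudogenes, of which 175 were called. The reverse held for 27, of which 17 were called, and the fractions overlapped in 13. Over 13237 genes with a mean of at least 50 and recovered counts, the background was 45.6% with both nuclear libraries above and 47.6% with both cytoplasmic libraries above. The pseudogenes together made up 0.888% of the normalized counts of the nuclear fraction and 0.164% of those of the cytoplasmic fraction.

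**Figure D1:**
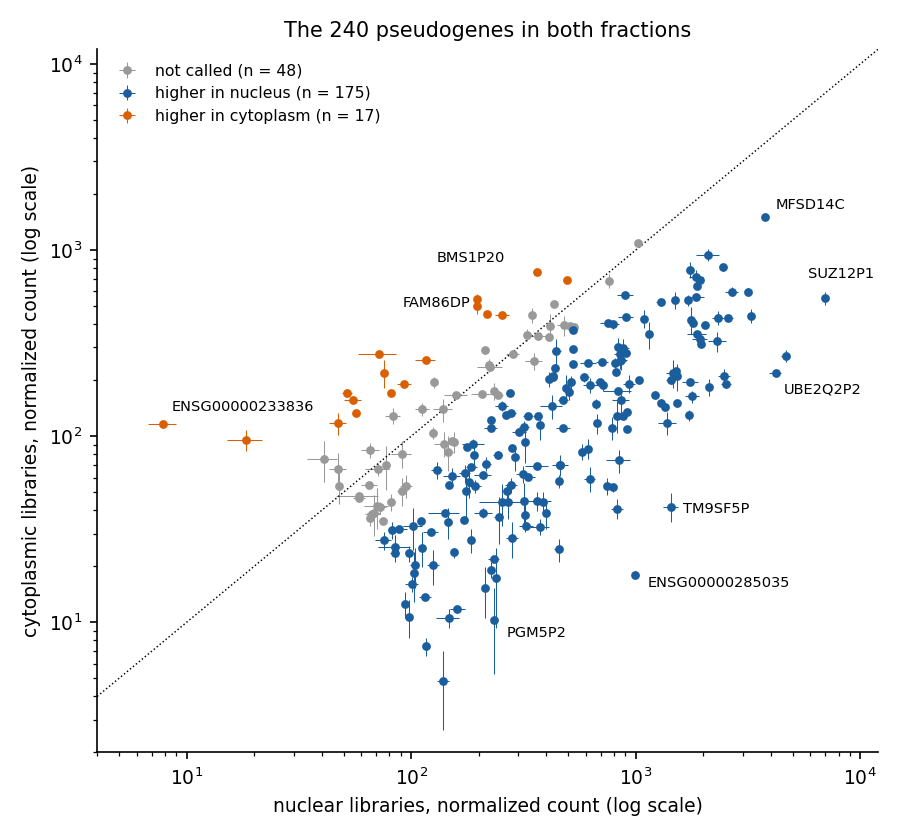
Mean normalized count of the 2 nuclear libraries (x axis, log scale) against that of the 2 cytoplasmic libraries (y axis, log scale) for each of the 240 pseudogenes, with bars from the lower to the higher library and the dotted line at equal levels. The 175 nuclear calls lie below the line, most of them far from it, and the 17 cytoplasmic calls lie above it.

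The class was set beside the other classes of the table with the same minimum mean. The 1285 lncRNAs had a median of -1.91, with 831 higher in the nucleus and 210 higher in the cytoplasm. The 12138 protein-coding genes had a median of 0.22. Pseudogenes annotated as unprocessed without the mark of transcription had a median of -1.74, and 37 of 58 were higher in the nucleus. The 41 processed pseudogenes stood on the other side, with a median of 2.95 and 33 called higher in the cytoplasm. Transcribed processed pseudogenes had a median of -1.02 (n = 49). Below the mean of 50, the class held 218 more tested genes, of which 35 were higher in the nucleus and 5 in the cytoplasm, with a median of -1.41. These medians are descriptions, and the difference between classes was not tested.

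**Figure D2:**
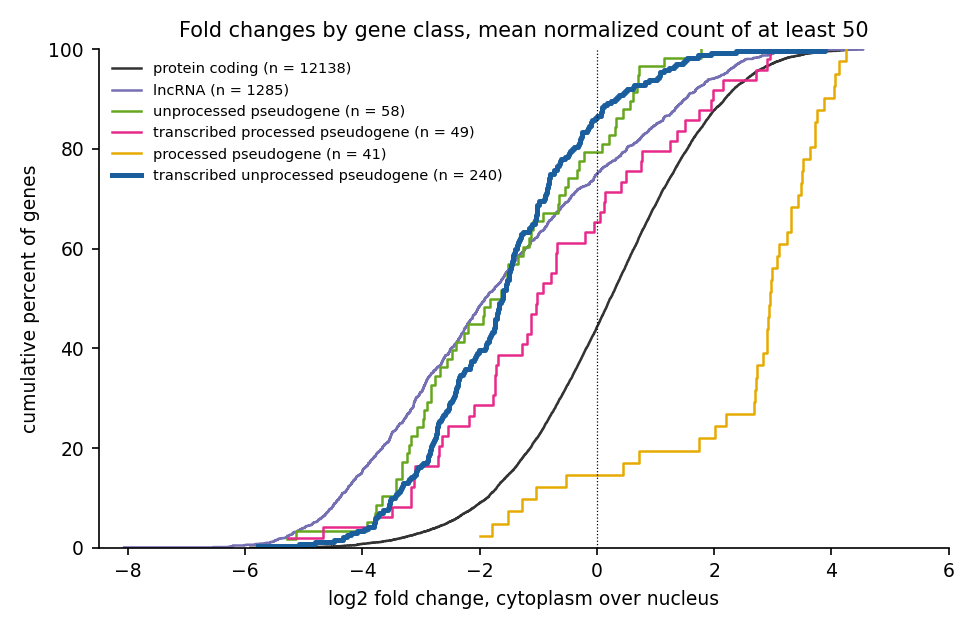
Cumulative percent of genes (y axis) with a log2 fold change, cytoplasm over nucleus, up to the value on the x axis, for 6 gene classes with a mean normalized count of at least 50. The curve of the 240 transcribed unprocessed pseudogenes runs near those of lncRNAs and unprocessed pseudogenes, with medians of -1.62, -1.91 and -1.74, and far to the left of the processed pseudogenes.

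The pseudogene with the highest mean normalized count, a level not corrected for gene length, was SUZ12P1 (ENSG00000264538, chr17:30731886-30776402, plus strand). It had 7043 and 6818 normalized counts in the deeper and shallower nuclear library and 507 and 594 in the cytoplasmic ones. The nuclear libraries thus lay 12.6-fold higher, at a log2 fold change of -3.66 ± 0.12 (SE) and a DESeq2 adjusted p of 1.25e-189 in the deposited table. SUZ12 itself differed less, with 2822 and 2878 normalized counts in the nuclear and 1710 and 1466 in the cytoplasmic libraries, at -0.84 ± 0.12.

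UBE2Q2P2 (ENSG00000259429, chr15:82391844-82420075, plus strand) was also among the 5 with the highest mean count. Its nuclear libraries held 4456 and 3940 normalized counts and its cytoplasmic libraries 227 and 209. This was a 19.2-fold difference (log2 fold change -4.26 ± 0.14 (SE), DESeq2 adjusted p = 3.37e-190). The parent UBE2Q2 had 1452 and 1392 normalized counts in the nuclear and 761 and 913 in the cytoplasmic libraries, at -0.77.

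Of the other 3 with the highest mean counts, ENSG00000205485, which has no symbol and no entry in the later annotation used here, had 4887 and 4420 nuclear and 290 and 252 cytoplasmic normalized counts. Its log2 fold change of -4.10 was among the 8 lowest. PARGP1, a copy of the poly(ADP-ribose) glycohydrolase gene PARG, had 3205 and 3121 nuclear and 564 and 624 cytoplasmic normalized counts (-2.41, with PARG at -1.08). MFSD14C had the highest cytoplasmic level of the group, 1558 and 1450 normalized counts, and was still higher in the nucleus at 3883 and 3656 (-1.33). Its protein-coding relative MFSD14B was not called at 0.32 ± 0.12.

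The lowest fold change was that of ENSG00000285035 (chr15:30644639-30658868, plus strand). It had 1034 and 959 normalized counts in the nuclear and 18.8 and 17.2 in the cytoplasmic libraries, a 55.3-fold difference at -5.79 ± 0.31 (SE) with a DESeq2 adjusted p of 3.75e-75. In the later annotation all of its extent is shared with other genes of the table, and the best matching protein-coding gene, ENSG00000284906, was at -3.47. TM9SF5P on chromosome X followed with 1544 and 1326 nuclear and 49.2 and 34.5 cytoplasmic normalized counts (-5.09 ± 0.23).

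The other 4 of the 8 with the lowest fold changes were ENSG00000226472 (-4.81), PGM5P2 (-4.48), ENSG00000284727 (-4.34) and ENSG00000284783 (-4.19). ENSG00000226472 had 148 and 130 nuclear against 7.04 and 2.65 cytoplasmic normalized counts. It was the single pseudogene with 3 or fewer counts in a library, and its standard error of 0.62 was the largest of the group. PGM5P2 had 230 and 239 nuclear against 15.2 and 5.30 cytoplasmic normalized counts, whereas PGM5, a phosphoglucomutase-like protein of cell adhesion sites, was not called at -0.36 ± 0.38. In both, the nuclear libraries lay far above the cytoplasmic ones, which differed from each other by more than 2-fold. These pseudogenes, too, passed the limit of the mean through the nuclear fraction alone.

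On the cytoplasmic side, the highest fold change was that of ENSG00000233836 (chr19:23790772-23833314, plus strand). It had 8.95 and 6.73 normalized counts in the nuclear and 116 and 117 in the cytoplasmic libraries, 14.8-fold apart at 3.88 ± 0.49 (SE) with a DESeq2 adjusted p of 1.24e-14. The later annotation places RPSA2, a protein-coding copy of the ribosomal protein gene RPSA, over the same stretch and strand. RPSA was itself at 3.72, and how many of the reads belong to that copy was not tested.

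GBP1P1, a copy of an interferon-inducible guanylate-binding protein gene, had 21.6 and 15.1 nuclear against 108 and 83.5 cytoplasmic normalized counts (2.38 ± 0.45). GBP1P1 also passed the limit of the mean through the cytoplasmic fraction alone. LINC00888, which carries the name of a long intergenic RNA but the class of a pseudogene, had 58.2 and 85.8 nuclear against 285 and 265 cytoplasmic ones (1.94 ± 0.27). ALG1L had 49.2 and 54.7 against 170 and 171 (1.72), and its relative ALG1, a mannosyltransferase of N-glycan assembly, was at 0.77. In each of these the cytoplasmic libraries lay well above the nuclear ones.

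The other large cytoplasmic differences were smaller than these. They were FAM86C1P at 1.53, GOLGA2P7 at 1.51, ENSG00000216775 at 1.47 and ZNF252P at 1.35. ENSG00000216775 on chromosome 6 had the highest counts of them, with 191 and 203 nuclear against 510 and 580 cytoplasmic normalized counts. Shares of exonic windows are taken over exons joined with those of later annotated genes, as described below. Of the exonic 100-base windows of GOLGA2P7, 4.56% occurred once in the genome. Intronic reads were counted too, and how many of its reads have a single place was not tested. The remaining calls were ZNF286B (1.32), FAM86JP (1.24), FAM86EP (1.14), TUBA5P (1.08), BMS1P20 (1.08), SBDSP1 (1.05), FAM86C2P (1.03), FAM86DP (0.81) and TRIM16L (0.48).

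The cytoplasmic calls depended on the scaling. DESeq2's size factors left the normalized counts of the cytoplasmic fraction with a larger sum than those of the nucleus, and scaling all libraries to equal totals instead moved every log2 fold change down by 0.66. Then 7 of the 17 were still called higher in the cytoplasm, namely 7 of the 8 with the largest fold changes, without GOLGA2P7. TRIM16L turned to -0.18. All 175 nuclear calls remained, and 28 were added, while the nuclear share of all genes with a mean of at least 50 rose to 51.8%.

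The FAM86 family gave 5 of the 17 cytoplasmic calls. It consists of copies related to EEF2KMT, formerly FAM86A, and was picked out after its values were seen. Of 8 pseudogenes of the family, 5 were higher in the cytoplasm, 2 were higher in the nucleus and 1 was not called, with a median of 0.92. Under equal library totals FAM86C1P kept its call, and FAM86C2P, FAM86DP, FAM86EP and FAM86JP lost theirs.

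FAM86C1P had 75.3 and 75.7 nuclear against 181 and 256 cytoplasmic normalized counts. FAM86JP had 58.9 and 54.7 against 132 and 135. FAM86EP had 128 and 104 against 264 and 250, so that the libraries of both fractions were apart in all of these. FAM86C2P had 86.5 and 100.1 against 185 and 195. FAM86DP had 271 and 237 against 435 and 459. FAM86FP was not called (89.5 and 76.5 against 116 and 142, DESeq2 adjusted p = 0.0723), although its cytoplasmic libraries were also the higher ones.

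Both nuclear members went the other way. FAM86HP had 196 and 183 nuclear against 66.8 and 91.4 cytoplasmic normalized counts (-1.27 ± 0.30). FAM86B3P had 326 and 281 against 106 and 105 (-1.53 ± 0.25). EEF2KMT was at 99.2 and 108 nuclear against 490 and 567 cytoplasmic normalized counts, 2.35 ± 0.21, above every pseudogene of the family. Between 83.3% and 98.1% of the exonic 100-base windows of these 8 pseudogenes occurred once in the genome.

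Families with 3 or more members that share a parent symbol are shown together. In 9 of these 14, all members were called higher in the nucleus as deposited. The calls of SMG1P7, TPTE2P6 and UBE2Q2P13 among them depended on single libraries, as given in the closing section. The 6 pseudogenes of SMG1, the kinase of nonsense-mediated decay, ran from -3.22 (SMG1P2) to -0.63 (SMG1P7), and SMG1 was at -0.34. SMG1P2 had 1359 and 1330 nuclear against 139 and 148 cytoplasmic normalized counts, and SMG1P7 had 464 and 424 against 243 and 333. Between 11.6% and 65.3% of their exonic windows were unique, so that reads could be exchanged within the family.

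The 4 pseudogenes of SDHA, the flavoprotein subunit of succinate dehydrogenase, were all higher in the nucleus, while SDHA was higher in the cytoplasm at 1.01 ± 0.11. SDHAP3 had 1975 and 1948 nuclear against 318 and 305 cytoplasmic normalized counts (-2.65), SDHAP2 943 and 866 against 268 and 292 (-1.69), SDHAP1 907 and 798 against 270 and 282 (-1.63) and SDHAP4 973 and 838 against 433 and 445 (-1.05). In each, the lower nuclear library was above the higher cytoplasmic one.

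All 5 pseudogenes named STAG3L, related to the meiotic cohesin gene STAG3, were nuclear, from -3.53 (STAG3L5P) to -1.47 (STAG3L4). STAG3, with a mean of 12.8, was not called at -1.27 ± 0.88. The 4 of GUSB, the lysosomal beta-glucuronidase, ran from -3.55 (GUSBP18) to -1.54 (GUSBP1). The 3 of the ubiquitin ligase HERC2 ran from -2.88 (HERC2P2) to -2.06 (HERC2P9). GUSB (-0.18) and HERC2 (-0.22) were not called. HERC2P2 had 3150 and 3398 nuclear against 407 and 484 cytoplasmic normalized counts.

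The 4 PKD1 pseudogenes on chromosome 16 lay close together, from -1.67 (PKD1P6) to -1.37 (PKD1P5). Their 95% intervals overlapped that of PKD1, the polycystic kidney disease gene, at -1.29, and between 13.1% and 45.6% of their exonic windows were unique. The septin pseudogenes SEPTIN7P13, SEPTIN7P14 and SEPTIN7P2 ran from -3.06 to -1.70. SEPTIN7 was at -0.45. The 3 of UBE2Q2 ran from -4.26 (UBE2Q2P2) to -1.64 (UBE2Q2P13). The 3 of TPTE2, a lipid phosphatase gene expressed in testis, ran from -3.97 (TPTE2P5) to -1.74 (TPTE2P6). TPTE2 itself was also called higher in the nucleus, at -3.14 ± 0.61, within the range of its copies and lower than TPTE2P6.

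The other families were mixed. BMS1, a GTPase of ribosome assembly, had 3 pseudogenes higher in the nucleus, 2 not called and BMS1P20 higher in the cytoplasm. BMS1P1 had 1335 and 1252 nuclear against 158 and 144 cytoplasmic normalized counts (-3.09), and BMS1P20 had 374 and 351 against 772 and 755 (1.08 ± 0.16). Copies of one gene thus stood on both sides. The difference between the log2 fold changes of BMS1P20 and BMS1 was 1.51, and 97.8% of the exonic windows of BMS1P20 were unique. Its call was lost under equal library totals.

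GTF2IP20, GTF2IP13 and GTF2IP12 were higher in the nucleus, and GTF2IP1 was not called at 0.35 ± 0.37. No exonic 100-base window of GTF2IP1 occurred once in the genome, and the stretch printed above has no difference from GTF2I. GTF2IP1 had 71.6 and 59.7 nuclear against 76.2 and 91.4 cytoplasmic normalized counts, from reads that could belong to another copy. Among the copies of PMS2, a mismatch repair gene, 2 were nuclear and PMS2P1 was not called (-0.10). Of the WHAMM copies, WHAMMP4 was nuclear (-1.06) and WHAMMP2 and WHAMMP3 were not called. The golgin copies GOLGA2P10 (-3.53) and GOLGA2P5 (-2.73) were nuclear, opposite to GOLGA2P7. Among 8 pseudogenes with a ZNF name, 5 were higher in the nucleus, led by ZNF767P at -3.72, 2 were higher in the cytoplasm and ZNF883 was not called.

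**Figure D3:**
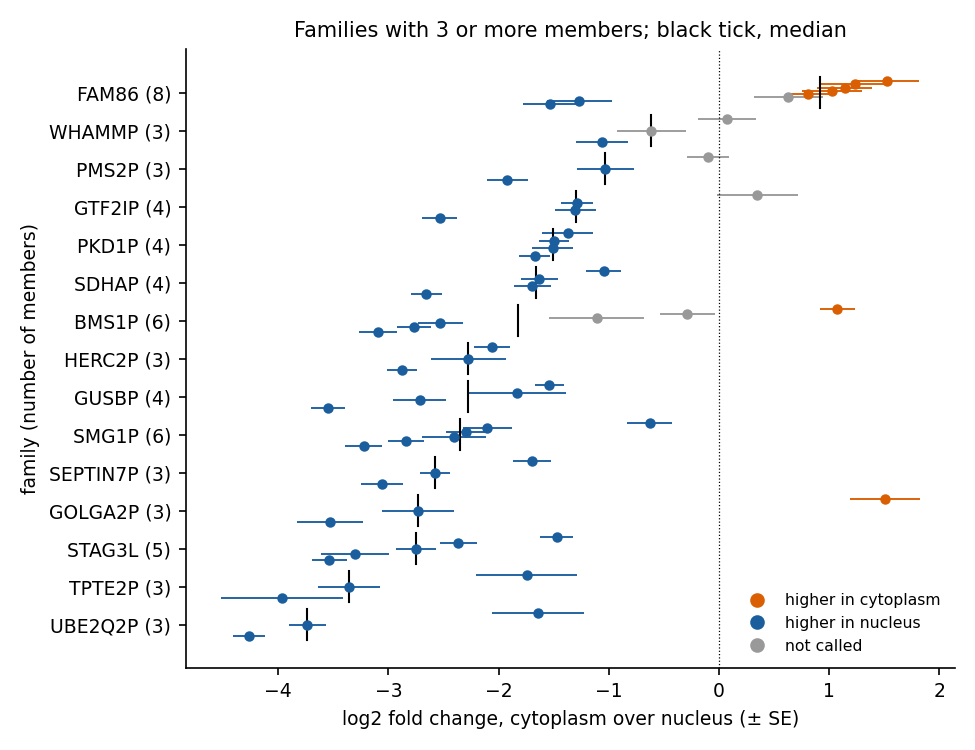
Log2 fold change, cytoplasm over nucleus (x axis, points with ± 1 SE), of pseudogenes in families with 3 or more members (y axis, number of members in brackets), with a black tick at the family's median. FAM86 alone has a median above 0 (0.92), and the BMS1P, GOLGA2P and FAM86 families have calls on both sides.

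Each pseudogene was then set beside its protein-coding parent, found by taking the final P and number off its symbol. Where this gave no tested protein-coding gene, a letter before the P was taken off as well. There were 118 such pairs with 69 parents. The pseudogene had the lower log2 fold change in 97 pairs and the higher one in 21. The 95% intervals did not overlap in 89 of these pairs, with 79 pseudogenes below and 10 above the parent. The median difference was -1.65 (quartiles -2.54 and -0.53), with medians of -1.68 for the pseudogenes and -0.34 for the parents. Across the pairs Spearman's rho between the fold changes was 0.24, a description in which several pseudogenes share a parent. All protein-coding genes with a mean of at least 50 had a median of 0.22 (quartiles -0.87 and 1.29). The 240 pseudogenes had -1.62 (quartiles -2.69 and -0.79), so many would also lie below an unrelated protein-coding gene. Whether the pairs differ by more than these classes do was not tested.

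In 22 pairs the pseudogene was higher in the nucleus and the parent higher in the cytoplasm, and in 1 pair, BMS1P20 with BMS1, the reverse held. Both were higher in the nucleus in 44 pairs. With the related gene found by sequence instead, 187 pseudogenes had a tested protein-coding match, at a median identity of 95.1%, and 149 of them had the lower fold change, with a median difference of -1.47.

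RPL32P3 had 919 and 803 nuclear against 286 and 228 cytoplasmic normalized counts (-1.74 ± 0.18), whereas RPL32, a protein of the large ribosomal subunit, was at 3.65, a difference of -5.39. GLUD1P3 was at -1.84 and GLUD1, the mitochondrial glutamate dehydrogenase, at 2.16. NSUN5P1 and NSUN5P2 were at -2.16 and -1.82, and NSUN5, a ribosomal RNA methyltransferase, was at 1.96. SUGT1P3 had 726 and 763 nuclear against 48.1 and 59.6 cytoplasmic normalized counts (-3.79), and the co-chaperone SUGT1 was at 0.42. MRPL45P2 was at -2.74, and the mitochondrial ribosomal protein gene MRPL45 was at 0.87.

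PPIEL was among the pseudogenes without a parent by symbol and was taken up after its values were seen. It had 1498 and 1544 nuclear against 157 and 143 cytoplasmic normalized counts (-3.34 ± 0.17). PPIE had 673 and 682 against 1895 and 1892 (1.48 ± 0.13). The fractions were thus in opposite order in this pair, with 12 differing bases in the printed stretch and with 100% of the exonic windows of PPIEL unique.

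Some pseudogenes were not called beside parents with large positive fold changes. RPL23AP82 had 301 and 265 nuclear against 278 and 273 cytoplasmic normalized counts (-0.04), and RPL23A was at 3.54. H2BC20P (0.12) and H2BC19P (-0.13) were not called, while their best protein-coding sequence match H2BC21, a histone H2B gene, was at 4.44. SBDSP1 was called higher in the cytoplasm at 1.05, with 213 and 224 nuclear against 439 and 466 cytoplasmic normalized counts, and SBDS, a ribosome maturation factor, was at 2.26. In these pairs too the pseudogene had the lower fold change.

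**Figure D4:**
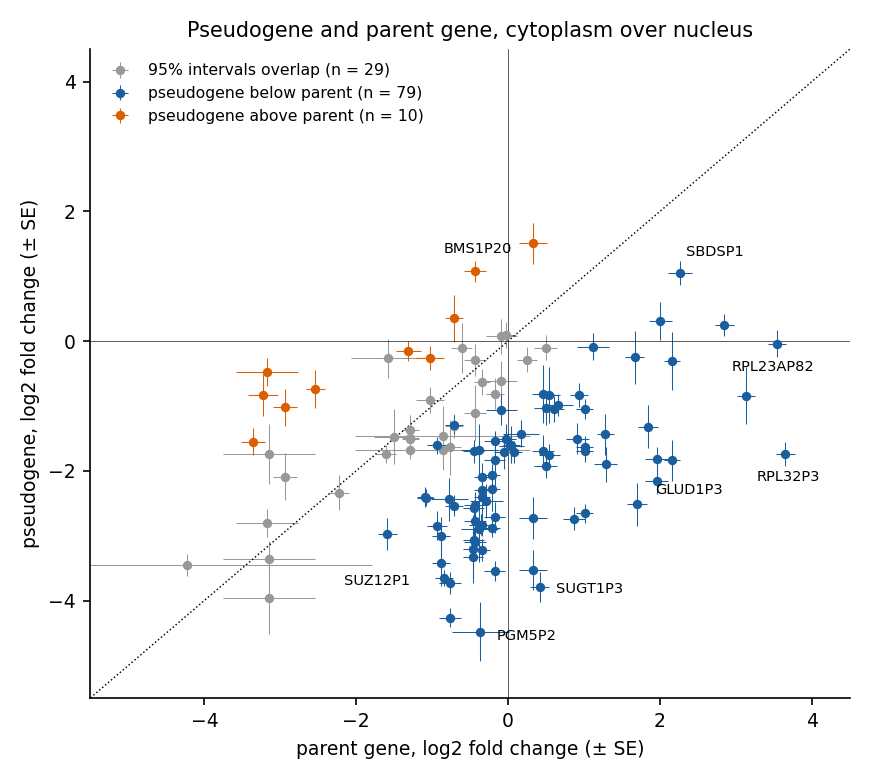
Log2 fold change, cytoplasm over nucleus, of each parent gene (x axis) and its pseudogene (y axis), with bars of ± 1 SE and the dotted line at equality, for 118 pairs matched by symbol. Coloured points are pairs whose 95% intervals do not overlap, 79 below the line and 10 above it, and the lower right part of the plot holds pairs with a nuclear pseudogene and a cytoplasmic parent.

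The genome position and structure of the pseudogenes were taken from GENCODE 44, a later annotation on the same assembly than the one used for counting. It had 239 of the 240, and 235 kept their class. For 218 of them it lists a further gene on the same strand that covers at least 50% of the pseudogene and is no row of the table. The extent, the exons and the unique shares of exonic windows given here therefore join both. The models that were counted may differ from these. The median joined extent was 41.9 kb with 12 exon blocks and 4273 exonic bases, and the median share of introns was 89.6%. Not all had introns in this annotation: 18 pseudogenes had 1 exon block in their own model, and 5 had 1 block after joining. Reads in introns were counted too, so that unspliced RNA adds to these values in either fraction.

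Sorted by this joined extent, the longer pseudogenes had lower fold changes. The 80 shortest, from 0.222 to 28.8 kb, had a median of -1.11, with 49 higher in the nucleus and 10 in the cytoplasm. The 79 of middle extent, from 29.3 to 59.4 kb, had a median of -1.60, with 53 and 5. The 80 longest, from 59.6 to 803 kb, had a median of -2.32, with 72 and 2. Across 239 pseudogenes Spearman's rho of the fold change was -0.32 with the joined extent but -0.14 with the pseudogene's own extent in the later annotation, which had a median of 12.2 kb. It was -0.28 with the share of introns and -0.04 with exonic length. These correlations are descriptions across genes that share libraries and, in part, sequence. The mean, on which the genes were selected, had a rho of -0.25.

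**Figure D5:**
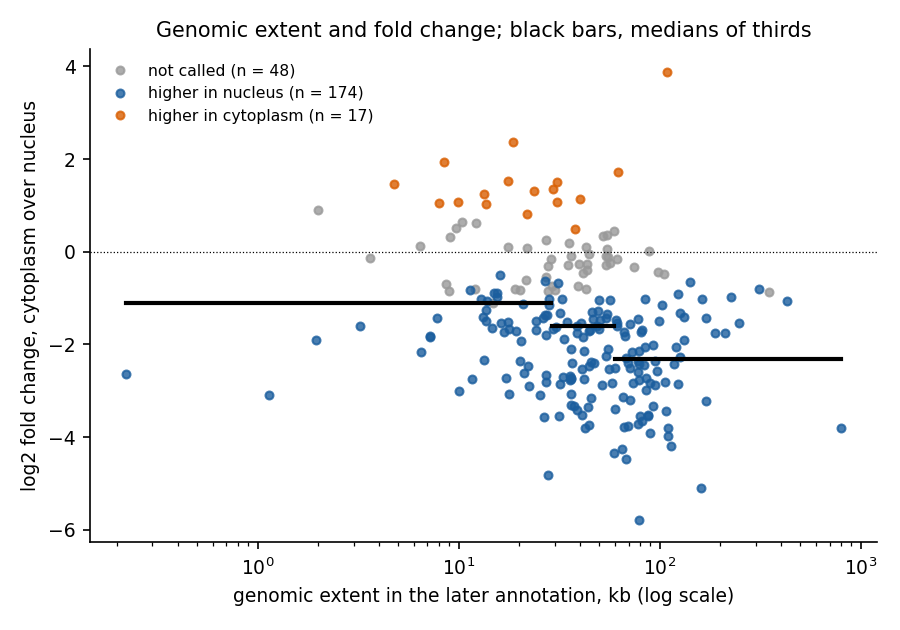
Joined genomic extent in kb (x axis, log scale) against log2 fold change, cytoplasm over nucleus (y axis), for 239 pseudogenes with an entry in the later annotation, with black bars at the medians of the shortest, middle and longest 80, 79 and 80. The medians fall from -1.11 to -1.60 and -2.32, and the cytoplasmic calls lie mostly at short extents.

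Near-identical copies share reads, and the counting could split or drop them. Over the joined exons, a median of 84.6% of a pseudogene's exonic 100-base windows occurred once in the genome. The share over the pseudogene's own exons alone was not taken. The share was under 50% for 51 pseudogenes and 100% for 45. Of the 51, 43 were higher in the nucleus and 1 in the cytoplasm, with a median of -1.71. Of the 187 at or above 50%, 130 were higher in the nucleus and 16 in the cytoplasm, with a median of -1.55. Across 238 pseudogenes rho between the unique share and the fold change was 0.04. The lowest shares were those of GTF2IP1, GOLGA2P7 and GTF2H2B, a copy of a TFIIH subunit gene with 5.35% of its windows unique.

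Chromosome 7 held 35 of the pseudogenes, of which 28 were higher in the nucleus and 1 in the cytoplasm. Chromosome 15 held 25, with 19 and 1, chromosome 16 held 19, with 17 and 0, and chromosome 22 held 11, with 8 and 1. Chromosome 3 had the most cytoplasmic calls, 4 of 17 pseudogenes, 2 of them from the FAM86 family. Chromosome 1 held 24, with 14 and 2 and a median of -1.23, and chromosome 17 held 17, with 11 and 2 and a median of -1.40. Medians on chromosomes 3, 7, 15, 16 and 22 lay between -1.76 and -1.63.

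The 48 pseudogenes that were not called ranged from -1.11 (BMS1P23) to 0.89, with 32 below and 16 above 0. An unadjusted p of at most 0.05 was found for 17 of them. For 26, the 95% interval lay within a log2 fold change of -1 to 1, which limits the difference, and for the others the interval reached past a 2-fold change. CFL1P1, near the lower limit of the mean, had 64.9 and 66.4 nuclear against 39.9 and 33.1 cytoplasmic normalized counts without being called (-0.84 ± 0.44). NBPF25P had 49.2 and 46.2 against 43.4 and 64.9 (0.18 ± 0.44), with overlapping libraries.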

How the data were processed

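RNA of 2 nuclear and 2 cytoplasmic fractions of HEK293T cells was sequenced, and the groups follow the labels. The pseudogenes, parent rule and families were chosen with earlier results of these data known. The authors aligned reads to hg38 with STAR, counted exons and introns together per gene with featureCounts 2.0.2 over an annotation from which overlapping stretches had been removed, and compared fractions with DESeq2. The version of DESeq2 and whether counting used strand are not given in the sources used here.

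The deposited table holds a mean normalized count per gene, a signal averaged by the authors over all 4 libraries. Fold changes are deposited on the log2 scale with a standard error each, as the authors estimated them, beside the authors' Wald score. Each deposited p-value and its adjusted value were used as they stand, because no counts are listed and the intended count test could not be run on the file. A gene was called at an adjusted p of at most 0.01 over all tested genes.

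Counts per library were recovered with Python 3.11.15 as the whole numbers that give the deposited mean, fold change and standard error, for 21866 of 22706 genes searched (96.3%, means up to 5000), and the search was tested on simulated data. A recovered count was divided by its library's size factor (1.34, 1.19, 0.853 and 0.755). The median misfit of the log2 fold change was 3.69e-09. Precision is limited by counting error and by the spread between libraries, and the deposited standard errors hold both. Values are relative to the other RNA of a fraction and are not amounts per cell.

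Parents were found by symbol, or by the best match of exonic sequence to protein-coding transcripts with blastn 2.17.0. Uniqueness is the share of exonic 100-base windows found once in hg38. For a pseudogene, the exons were joined with those of later annotated genes on its strand, where there were any. Genes named were the 8 largest fold changes in each direction, the 5 highest means, those next to the limit of 50, those opposite to their parent, the 3 with the smallest unique share, families of 3 or more, and genes said to be chosen after their values were seen. Symbols were those of the table, and of 47 pseudogenes without one, 12 took theirs from GENCODE 44. The family list also held symbol starts without any member in the group. Alternatives were other scalings, limits on the mean and fold change, Bonferroni adjustment, limma 3.58.1 (R 4.3.3) on log2 of the recovered normalized count plus 0.5 or 5 over genes with a mean of at least 10, and leaving out each library.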

Additional observations from a re-analysis of the deposited data

How the results depend on the processing

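Nuclear calls outnumbered cytoplasmic ones under every alternative run, and the number of cytoplasmic calls moved. Against 17 cytoplasmic and 175 nuclear calls and a median of -1.62, scaling to equal library totals gave 7, 203 and -2.28. That scaling also moved all 13894 genes with a mean of at least 50, from 40.3% and 36.8% to 25.8% cytoplasmic and 51.8% nuclear calls and to a median of -0.58. Bonferroni adjustment over 32478 genes gave 9 and 145, against 31.2% and 28.0% of the 13894. Centring on protein-coding genes (a shift of 0.11) gave 16, 180 and -1.73, against 37.8% and 39.3% of genes. Means of at least 10 (343 genes) gave 21 and 209, and means of at least 100 (192 genes) gave 13 and 150. A log2 fold change over 0.5 left 16 and 174. Leaving out pseudogenes with under 50% unique windows left 16 and 132, with a median of -1.55. For these limits on the mean, the fold change and the unique share, the share called over all genes was not taken, so these counts have no background. limma called 20 and 188 with a pseudocount of 0.5 and 21 and 191 with 5, and all 175 and 17 were among them, where 41.1% and 39.7% (0.5) and 41.6% and 40.0% (5) of 13237 genes were called. Leaving out each library in limma gave 16 to 20 cytoplasmic and 167 to 185 nuclear calls and medians from -1.65 to -1.58, against 36.0% to 40.3% and 33.4% to 39.1% of genes. The pseudogene was below its parent in 97 of 118 pairs by symbol, in 64 after leaving out pairs with under 50% unique windows, which are fewer, in 83 with parents of a mean of at least 500 and in 149 of the larger number of pairs by sequence, an alternative chosen after seeing the data.

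Of 87 pseudogenes named, under 10 settings, 10 changed sign, all of them between -0.13 and 0.63 as deposited, with TRIM16L (0.48) the single one that had been called. Equal totals turned NBPF25P to -0.48, GTF2IP1 to -0.31, WHAMMP3 to -0.59, H2BC20P to -0.54, ZNF883 to -0.29, TRIM16L to -0.18 and FAM86FP to -0.030, and centring on protein-coding genes turned WHAMMP3 to -0.040. Leaving out the shallower cytoplasmic library turned NBPF25P to -0.14 and H2BC19P to 0.20. Leaving out the deeper nuclear library turned PMS2P1 to 0.023, RPL23AP82 to 0.056 and WHAMMP3 to -0.090. TRIM16L was the cytoplasmic call lost under centring, and the cause of these changes is the shift itself under both scalings. Without the shallower nuclear library, SMG1P7, TPTE2P6 and UBE2Q2P13 kept their negative sign in limma but not their call. SMG1P7 also lost its call without the deeper library of either fraction. TRIM16L kept its positive sign but lost its call without the shallower nuclear library, and likewise without the deeper nuclear one. The recovered counts carry no replicate number, so limma was run with a replicate block under both possible pairings of the libraries, chosen after seeing the data. This gave 18 cytoplasmic and 183 nuclear calls with the deeper libraries paired (40.0% and 38.5% of genes) and 22 and 193 with the deeper paired with the shallower (42.9% and 41.2%), and all 17 and 175 were among them. No count model was run on the recovered counts. With 2 libraries a fraction, p-values rest on a small spread, and pseudogenes near the limit of the mean are bounded by their counts.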
